A study of Mus musculus with 12 samples.

Results

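Granulocyte-monocyte precursors (GMPs), marrow progenitors of the granulocyte and monocyte lineages, were compared between mice with a human GFI1 knock-in and mice with a mouse Gfi1 locus, intact or knocked out. All 12 arrays of the series entered the comparison, 6 in each class, and the class of an array followed from its labelled genotype alone. The knock-in class held 3 arrays of the wild-type human form (wtKI) and 3 of a variant human form (SNP). The mouse-allele class held 3 wild-type arrays (WT) and 3 Gfi1 knock-out arrays (KO). All mice were C57BL/6, kept free of specific pathogens, and the GMPs were sorted by flow cytometry from bone marrow. RNA was purified on a micro-scale column, amplified by a NuGEN pico-scale method, labelled with biotin and hybridised to Affymetrix arrays of mouse genes. The KO mice lack the function of the gene while the WT mice have it, so the class of mouse alleles is itself mixed. The number of arrays limits the precision of every value. The labels name no age and no sex, and do not say how the knock-ins were built or whether each array had its own mouse. All p-values therefore rest on a spread among samples that could be technical. Values are log2 signals, and a difference is the mean of the wtKI and SNP group means minus the mean of the WT and KO group means, with its standard error (SE).

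GFI1 is a zinc-finger protein that binds DNA and represses transcription by bringing the histone demethylase KDM1A, its partner RCOR1 and histone deacetylases to its targets. In the marrow it favours the granulocyte over the monocyte fate and restrains the division of stem cells. In humans, mutations of GFI1 are a cause of congenital neutropenia. The series was made to find genes that respond to the variant human form, in relation to acute myeloid leukaemia. The present comparison asks what both human forms share against both mouse-allele groups.

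Gfi1 itself gave the clearest difference between the classes, and it did so in single probe sets and not in the gene as a whole. The table holds 105661 probe sets, most of them covering part of a gene, and 5 of them carry the symbol Gfi1. Probe set 10532126 had values of 2.36, 3.65 and 2.78 in wtKI, with 3.83, 2.89 and 3.26 in SNP. The WT arrays were at 5.08, 5.78 and 6.29, and the KO arrays at 6.43, 6.74 and 6.58. The classes did not overlap, and the difference of -3.02 ± 0.29 had the smallest p of all probe sets (limma adjusted p = 0.0659 over all of them). It was of similar size in each knock-in, at -3.22 ± 0.35 in wtKI and -2.82 ± 0.35 in SNP (limma adjusted p = 0.0355 and 0.101 for each knock-in alone against the mouse-allele arrays). All 6 knock-in arrays and 1 mouse-allele array lay below the 5th percentile of their own array for this probe set, so the size of the difference is not exact. Without SNP 1 and KO 1 it was -3.18 ± 0.31 (limma adjusted p = 0.158).

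Probe set 10532129 of Gfi1 differed in the other direction. It was at 6.88, 7.05 and 7.39 in wtKI and 6.65, 6.66 and 7.14 in SNP, against 5.59, 5.33 and 5.85 in WT and 5.63, 5.63 and 5.47 in KO. Again no knock-in array overlapped the others, with a difference of 1.38 ± 0.17, rank 5 by p among all probe sets (limma adjusted p = 0.154). Both had the smallest exact permutation p that 6 arrays against 6 allow (0.00216, two-sided, over all splits). The remaining probe sets overlapped between the classes. Probe set 10532130 was higher by 1.04 ± 0.33 (exact permutation p = 0.0281), with 2 knock-in and 5 mouse-allele arrays below the 5th percentile. The differences of 10532127 and 10532125 were -0.39 ± 0.18 and -0.31 ± 0.29 (exact permutation p = 0.108 and 0.385). These patterns of Gfi1 were known when the classes were chosen, so they describe these arrays and are not independent evidence.

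**Figure D1:**
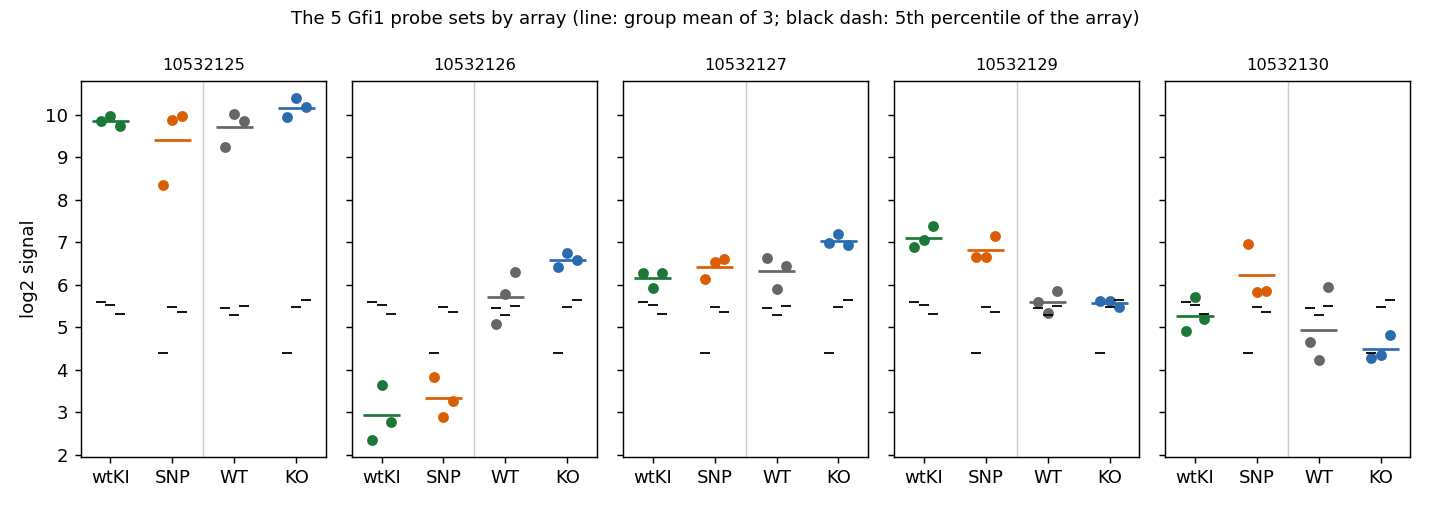
Log2 signal of the 5 Gfi1 probe sets (one panel each, named by probe set) on the 12 arrays, with wtKI and SNP left of WT and KO. Points are arrays, coloured lines are group means of 3, and black dashes mark the 5th percentile of the array above or below them. Probe set 10532126 sits between 2.36 and 3.83 on the knock-in arrays and between 5.08 and 6.74 on the others, while 10532129 is higher on the knock-in arrays.

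Taken as the median of its probe sets, the gene value of Gfi1 was 6.28, 5.93 and 6.27 in wtKI and 6.65, 6.54 and 6.61 in SNP, against 5.59, 5.78 and 6.29 in WT and 6.43, 6.74 and 6.58 in KO. The classes overlapped, and the difference was 0.14 ± 0.15 (limma adjusted p = 0.765). The KO arrays were higher than the WT arrays by 0.69. The position of these probe sets relative to the deleted or replaced part is not given in the sources used here, so they do not check the genotype labels. The median combines probe sets that differ in opposite directions. Its sign turned to -0.26 when the probe sets were averaged and to -0.31 when the probe set with the highest mean was used. Gfi1b, a paralog with the same kind of DNA-binding domain that GFI1 is reported to repress, differed by -0.12 ± 0.23 (limma adjusted p = 0.87) and by 0.06 ± 0.13 without SNP 1 and KO 1. The upstream 250 bases at a start site of mouse Gfi1, the locus that separates the classes, read as follows in RefSeq (GRCm38.p6, chr5:107725806-107726055, minus strand). The core of the GFI1 binding motif, AATCAC, occurs on neither strand of it, nor at the other listed start site.

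Gfi1: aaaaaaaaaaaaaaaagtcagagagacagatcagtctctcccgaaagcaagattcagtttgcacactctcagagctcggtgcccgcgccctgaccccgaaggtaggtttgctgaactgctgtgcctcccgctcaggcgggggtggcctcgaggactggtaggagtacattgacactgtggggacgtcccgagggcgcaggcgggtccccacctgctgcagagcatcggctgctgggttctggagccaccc

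**Figure D2:**
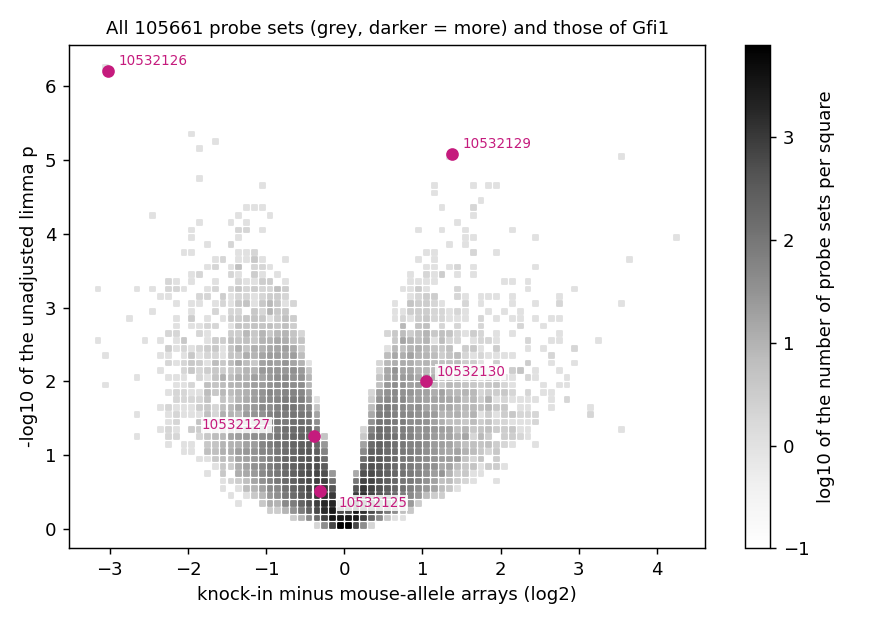
Each grey square counts probe sets by their knock-in minus mouse-allele difference (x axis, log2) and the -log10 of the unadjusted limma p (y axis), darker where more fall. The Gfi1 probe sets are marked, and 10532126 lies above every other probe set with a difference of -3.02.

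SNP 1 and KO 1 stand apart from the other arrays and bear on every result below. Their median correlations with the other arrays were 0.633 and 0.701, against 0.836 to 0.886 for the other 10, and the 5th percentile of their signals was 4.39 and 4.4, against 5.3 to 5.65. Late neutrophil, B-lineage and erythroid markers averaged 10.74, 8.95 and 9.6 on SNP 1, where the other 5 knock-in arrays reached at most 7.11, 6.09 and 6.87. KO 1 was at 7.14, 6.31 and 7.67 for these lists. In a bulk sample, more cells of a type and more RNA per cell cannot be told apart. Y-linked genes averaged 2.95 on wtKI 2, 3.18 on wtKI 3 and 2.94 on WT 3, and 7.49 to 8.38 on the other arrays, so the arrays low in them were 2 in the knock-in class and 1 in the mouse-allele class. Results are given with all 12 arrays and without SNP 1 and KO 1, which leaves 10.

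The medians of Mpo, Cd34 and Kit, markers of GMPs, were similar in both classes, but SNP 1 was lower in such markers. The list of GMP markers averaged 8.36 on SNP 1 and 8.82 on KO 1, against 8.94 to 9.32 on the other arrays. Mpo, the myeloperoxidase of primary granules, ranged from 10.81 to 11.55 on the knock-in arrays and from 11.38 to 11.52 on the mouse-allele arrays. Cd34, a surface marker of progenitors, had a median of 10.72 in both classes, with a lowest knock-in value of 7.35 on SNP 1. Kit, the stem cell factor receptor, had medians of 8.68 in the knock-ins and 8.66 in the others, with lowest values of 6.86 and 7.79. Fcgr3, an Fc receptor of the CD16/32 gate that defines GMPs, was at 8.04, 7.17 and 7.82 in wtKI and 8.93, 8.67 and 8.06 in SNP, against 8.14, 9.11 and 8.97 in WT and 8.37, 9.14 and 9.02 in KO. Its difference was -0.68 ± 0.25 with overlap between the classes (limma adjusted p = 0.446).

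Across the 14201 genes with a value, no gene passed the threshold. Limma called 0 genes (0% of those tested), and the smallest adjusted p was 0.308. At an unadjusted p under 0.05 there were 1363 genes (9.6%), 609 higher and 754 lower in the knock-ins, where 5% of the genes tested would be 710. Centring each array on its median moved the median difference of all genes to 0.05 and turned that split to 721 higher and 585 lower. A stricter test asked that both wtKI and SNP differ from the mouse-allele arrays in the same direction. It called 0 genes (0%), and 170 met an unadjusted p under 0.05, 74 higher and 96 lower. Without SNP 1 and KO 1 the median SE of a gene was 0.18, against 0.21 with them. Limma again called 0 genes (0%), now with a smallest adjusted p of 0.0649, and 2140 (15.1%) had an unadjusted p under 0.05.

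In 84 genes (0.592%) every knock-in array lay on one side of every mouse-allele array. Of these, 36 (0.254%) were higher and 48 (0.338%) lower in the knock-ins, and 3 and 1 of them are uncharacterised. Their adjusted p-values ran from 0.308 to 0.612 in limma, so none passed. The higher ones differed by 0.2 to 2.13 with a median of 0.62, and the median of the lower ones was -0.61. On the 10 arrays the medians of the same genes were 0.54 and -0.54, with a direction that their choice fixes. The difference was the larger one in SNP for 30 of the 36 and 41 of the 48. On the 10 arrays that held for 24 and 29. The share of all genes with a larger difference in SNP was not counted, so these counts have no background. The smallest limma adjusted p of a test of SNP against wtKI among the 84 genes was 0.555. They lay on all chromosomes with autosomal or X-linked genes, with shares between 0.137% and 1.04% of a chromosome's genes.

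The genes higher in both knock-ins had varied functions. Angptl1, a secreted angiopoietin-like protein, had the largest difference. It was at 9.04, 8.89 and 8.93 in wtKI and 10.18, 8.29 and 8.83 in SNP, against 8.21, 7.28 and 7.3 in WT and 4.48, 7.99 and 6.14 in KO. The ranges lay close together without meeting, and the lowest value was that of KO 1. The difference was 2.13 ± 0.51, and 1.43 ± 0.34 without SNP 1 and KO 1. Angptl1 rests on 1 probe set.

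Mrc1, the mannose receptor of macrophages, had the smallest p of the 36 higher genes. Its lowest, median and highest values were 6.86, 7.17 and 7.54 on the knock-in arrays, against 6.31, 6.71 and 6.82 on the mouse-allele arrays. That is a difference of 0.62 ± 0.14, or 1.53-fold, with 5 of its 6 probe sets in the same direction (limma adjusted p = 0.325). Gbp2b, an interferon-inducible GTPase of the guanylate-binding family, ranged from 6.98 to 7.71 in the knock-ins and from 5.99 to 6.73 in the others, a difference of 0.73 ± 0.17. Zup1, a deubiquitinase, was higher by 0.61 ± 0.14 with all 12 of its probe sets higher. Abca9, a lipid transporter of the ABC family, was higher by 1.2 ± 0.28, with all 29 probe sets higher. Taken singly, 2 of these had no overlap, as did 1 of 12 in Zup1 and 0 of 6 in Mrc1. The genes were chosen by the median of their probe sets, so a shared direction is partly built in, here and below. Phf6, a chromatin protein with PHD fingers that is mutated in human T-cell leukaemia, was higher by 0.7 ± 0.16 and equally so in wtKI (0.69) and SNP (0.7). When only the probe set with the highest mean was used, Phf6 was at -0.03.

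Gas2l3, which links actin and microtubules, ranged from 7.8 to 8.52 in the knock-ins and from 6.74 to 7.78 in the others. All 11 of its probe sets were higher, 2 of them without overlap. Eml5, a microtubule-associated protein, was higher by 0.73 ± 0.18, with 24 of 26 probe sets higher and 0 without overlap. Dzip1l, a ciliary protein, and Spef2, a protein of the sperm tail, were higher by 0.9 ± 0.23 and 0.69 ± 0.2, each on 1 probe set and with 4 and 2 mouse-allele arrays below the 5th percentile. The endosomal protein Zfyve16 and the Rab regulator Rabgap1l were higher by 0.94 ± 0.26 and 0.58 ± 0.15. Lypd6, Mfsd9 and Slc5a9, a membrane-anchored protein and a pair of transporter genes, differed by 0.51, 0.53 and 0.72, the last with SNP 1 far above the other knock-in arrays at 7.06. The adjusted p-values of these genes lay between 0.325 and 0.413 in limma.

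The genes lower in both knock-ins also had varied functions. Kng2, a kininogen gene otherwise known from the liver, had the smallest p of these 48. It was at 5.12, 5.52 and 5.76 in wtKI and 4.46, 4.48 and 5.51 in SNP, against 6.24, 6.58 and 6.31 in WT and 6.69, 6.5 and 6.63 in KO. No knock-in array reached the lowest of the others, and the difference was -1.35 ± 0.2 (limma adjusted p = 0.308). It rests on 1 probe set, and 3 knock-in arrays were below the 5th percentile.

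Rcc1, which loads the GTPase Ran with GTP on chromatin, ranged from 6.93 to 7.53 in the knock-ins and from 7.74 to 8.09 in the mouse-allele arrays, a difference of -0.69 ± 0.14. Sgo2a, a shugoshin that guards the cohesion of chromosomes, differed by -0.61 ± 0.14, and Poc1a, a protein of centrioles, by -0.92 ± 0.19. Sf3a2, a subunit of the U2 spliceosome particle, differed by -0.72 ± 0.15. Its values split within the knock-ins, at 8.39, 8.55 and 8.57 in wtKI and 7.73, 8.08 and 7.33 in SNP, all under the 8.68 that was the lowest of the other class. The mitochondrial ATP synthase subunit Atp5d showed the same order, with -0.38 in wtKI and -0.9 in SNP. All of these had adjusted p = 0.324 or 0.325 in limma.

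G6pc3, a glucose-6-phosphatase of the endoplasmic reticulum whose loss causes neutropenia in humans, was at 8.32, 8.63 and 8.31 in wtKI and 7.03, 8.86 and 8.43 in SNP, against 9.48, 9.02 and 8.91 in WT and 10.05, 9.51 and 9.64 in KO. All 7 of its probe sets were lower, and the difference was -1.17 ± 0.28, or -0.82 ± 0.16 without SNP 1 and KO 1. Ctsz, a lysosomal cathepsin, had narrow ranges of 7.58 to 7.88 in the knock-ins and 8.27 to 8.56 in the others. All 8 of its probe sets were lower, 2 of them without overlap. Rab35, a GTPase of endosome recycling, and Flot2, a flotillin of membrane rafts, differed by -1.06 ± 0.2 and -0.93 ± 0.2. Commd2, a member of the COMM-domain family, differed by -1.11 ± 0.21, Emc10, part of the ER membrane complex, by -0.5 ± 0.12, and Pdcl3, a chaperone-like protein, by -0.67 ± 0.13. Hfe, a class I-like protein that controls iron uptake, and the SUMO-directed peptidase gene Desi1 differed by -0.85 ± 0.19 and -0.69 ± 0.16. With the probe set of highest mean these were at 0.24 and 0.05.

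**Figure D3:**
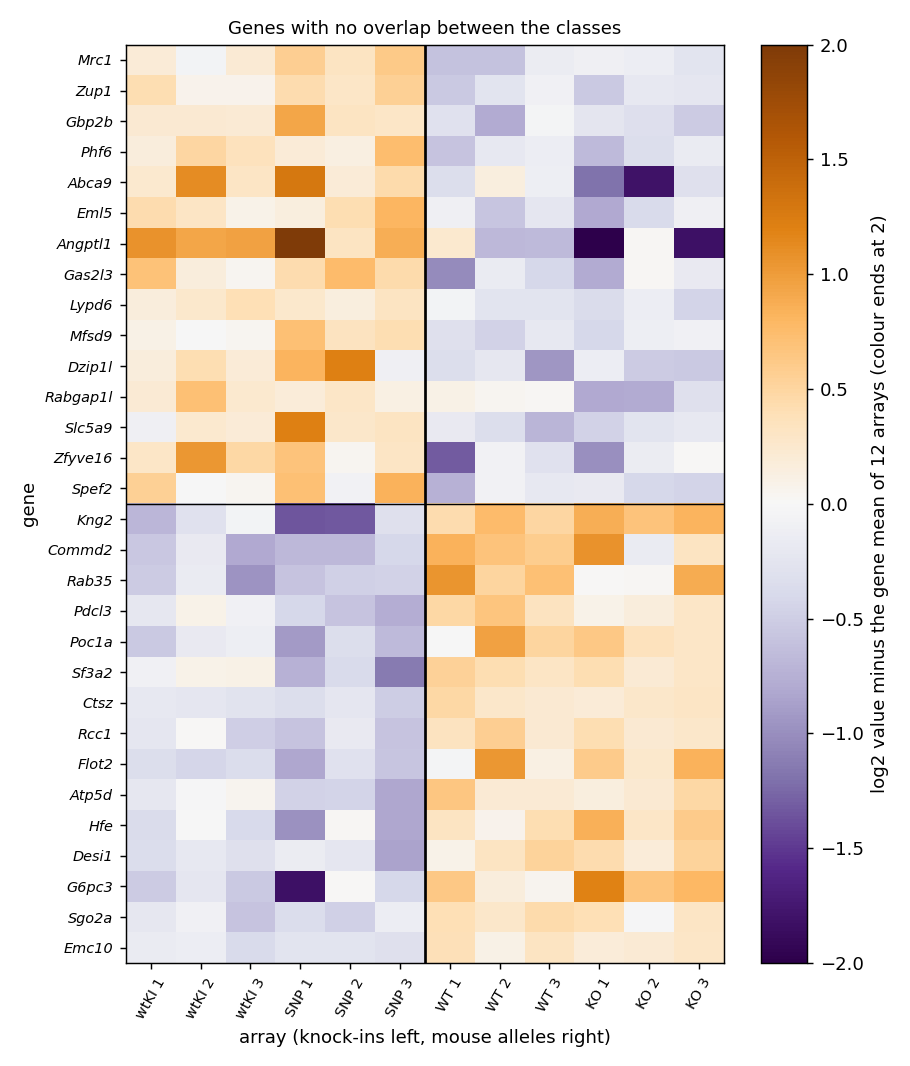
Colour shows each gene's log2 value minus its mean over the 12 arrays, for the 15 genes per direction with the smallest p among those without overlap. Columns are arrays, wtKI and SNP left of the black line and WT and KO right of it. Orange is above and purple below the gene's mean, and the strongest colours fall on SNP 1 (G6pc3, Angptl1) and on KO arrays (Angptl1, Abca9).

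The core GFI1 motif AATCAC was searched on both strands of the upstream 250 bases at the RefSeq start sites of these 30 genes. A promoter was found for 26, and 3 of these genes held it at a listed start site. Of all 32851 listed promoters 9.14% held it, a share per promoter and not per gene. The promoters with the motif are shown because they are where a repressor with this motif could be looked for. They belong to Angptl1, which was higher in the knock-ins (chr1:156838773-156839022, plus strand), and to Hfe (chr13:23710855-23711104, minus strand) and Sgo2a (chr1:57985090-57985339, plus strand), which were lower. Capitals mark the motif. A match describes the letters only.

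Angptl1: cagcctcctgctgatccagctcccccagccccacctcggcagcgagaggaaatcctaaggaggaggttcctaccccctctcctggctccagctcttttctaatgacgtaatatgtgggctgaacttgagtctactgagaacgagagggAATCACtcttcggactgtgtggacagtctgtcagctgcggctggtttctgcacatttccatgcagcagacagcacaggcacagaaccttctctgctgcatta
Hfe: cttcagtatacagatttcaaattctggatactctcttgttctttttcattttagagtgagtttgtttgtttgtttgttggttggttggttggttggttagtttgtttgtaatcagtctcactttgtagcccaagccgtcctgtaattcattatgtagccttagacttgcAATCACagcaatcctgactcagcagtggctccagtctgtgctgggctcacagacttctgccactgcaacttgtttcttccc
Sgo2a: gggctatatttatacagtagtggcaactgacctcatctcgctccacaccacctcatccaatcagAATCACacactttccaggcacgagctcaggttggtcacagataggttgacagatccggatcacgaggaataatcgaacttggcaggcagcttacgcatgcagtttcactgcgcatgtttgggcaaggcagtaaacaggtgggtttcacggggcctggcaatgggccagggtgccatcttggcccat

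At the level of single probe sets limma called 0 of 105661 (0%), and 9626 (9.11%) had an unadjusted p under 0.05. Probe sets without overlap numbered 678 (0.642%), 263 higher (0.249%) and 415 lower (0.393%), of which 36 carry no symbol or several and the others fell in 557 genes. Without SNP 1 and KO 1 they numbered 2492 (2.36%), 904 higher (0.856%) and 1588 lower (1.5%). On all arrays, 74 of the 557 genes had more than 1 such probe set, and in 5 the probe sets went in both directions: Anapc15, Gfi1, R3hdm2, Sec14l1 and Usp34 (all but Gfi1 chosen after their values were seen). In many genes a single probe set stood apart while the gene value did not. Shmt2, the mitochondrial serine hydroxymethyltransferase, had a probe set at 4.55 to 6.04 in the knock-ins and 6.79 to 7.23 in the others, a difference of -1.63 ± 0.2, and a gene value of -0.55. A probe set of Notch1, the receptor of the Notch pathway, ranged from 6.9 to 8.52 and from 5.51 to 6.41 in these classes, with a gene value of 0.28. One of Mrpl3, a mitochondrial ribosomal protein, differed by -1.93 ± 0.31 with all 13 probe sets of the gene lower. One of Riok1, a kinase of ribosome assembly, differed by -1.81 ± 0.19 in wtKI and by -0.25 ± 0.19 in SNP. The probe sets with the smallest p after that of Gfi1 had an adjusted p of 0.154 in limma.

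Leaving out SNP 1 and KO 1 raised the number of genes without overlap to 346 (2.44%), 139 higher (0.979%) and 207 lower (1.46%). The 84 found on all arrays are among them by construction. Of the others, SNP 1 alone bridged the classes in 31 higher and 24 lower genes, and KO 1 alone in 60 and 111. The 2 higher genes with the smallest p there were Kcnrg, a regulator of potassium channels (1.79 ± 0.21), and Gm9078, a predicted gene on the X chromosome (2.57 ± 0.31), both with a limma adjusted p of 0.0649 on the 10 arrays. Gm9078 was at 9.91, 9.99 and 9.89 in wtKI and 8.27, 7.3 and 7.23 in SNP, against 5.66, 7.12 and 5.87 in WT and 8.22, 5.19 and 6.48 in KO. It was thus highest in wtKI, and only KO 1 reached the SNP range. Among lower genes, small p-values there belonged to Ifitm1, an interferon-induced membrane protein, and Mospd3, at -0.94 ± 0.13 and -1.4 ± 0.2, both with overlap (limma adjusted p = 0.089 and 0.0922).

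Gene lists of cell growth were lower in the knock-ins in nearly all members, by small amounts and least in wtKI against KO. Of the 23 measured cell cycle genes 22 were lower and 1 higher, with a median difference of -0.29, at -0.17 in wtKI and -0.3 in SNP. Without SNP 1 and KO 1, 21 were lower, the median was -0.26, and it was -0.2 in wtKI and -0.24 in SNP. On these 10 arrays the mean of the list ran from 8.46 to 8.88 in the knock-ins and from 8.93 to 9.0 in the mouse-allele arrays. No member passed or stood without overlap (background 0.592%). Mcm3, a subunit of the replicative helicase, differed by -0.53 ± 0.22, Cdc20, an activator of the anaphase-promoting complex, by -0.52 ± 0.27, and E2f1, a transcription factor of S-phase entry, by -0.61 ± 0.33. Mcm3 and Cdc20 were at -0.35 and -0.3 without SNP 1, and E2f1 at -0.39 without WT 2. Over all genes 7194 were higher and 7007 lower, with a median of 0.0.

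Ribosome biogenesis genes were lower in 18 of 18 members, with a median of -0.39 that was -0.09 in wtKI and -0.69 in SNP. Against WT alone it was -0.22 in wtKI and -0.73 in SNP, and against KO alone -0.03 and -0.6. The median was -0.21 and 17 were lower on the 10 arrays, where the means of the list still overlapped, with 8.56 to 8.95 in the knock-ins and 8.85 to 9.1 in the mouse-allele arrays. Nop2, a methyltransferase of ribosomal RNA, differed by -0.61 ± 0.2, and Rrp12 and Nolc1, nucleolar assembly factors, by -0.58 ± 0.31 and -0.58 ± 0.32. Without SNP 1 these were at -0.35 and -0.28, and Rrp12 was at -0.38 without KO 2. The list averaged 7.33 on SNP 1 and 8.42 on KO 1, against 8.56 to 9.1 on the other arrays. Of the cytosolic ribosomal protein genes 7 were higher and 9 lower, with a median of -0.03.

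Energy metabolism genes were also lower in most members. In glycolysis and the response to hypoxia 14 of 16 were lower, with a median of -0.2, and -0.25 without SNP 1 and KO 1. Aldoa, the glycolytic aldolase, had a lowest, median and highest value of 9.17, 9.98 and 10.23 in the knock-ins, against 10.27, 10.4 and 10.63 in the mouse-allele arrays. Its classes did not overlap, and it differed by -0.52 ± 0.16 (limma adjusted p = 0.413). Ldha, lactate dehydrogenase, differed by -0.53 ± 0.19 and Pfkp, a phosphofructokinase, by -0.52 ± 0.24, both with overlap. Oxidative phosphorylation genes were lower in 14 of 18, with a median of -0.2, at -0.04 in wtKI and -0.28 in SNP. On the 10 arrays the medians of the 2 knock-ins were -0.11 and -0.2. Uqcrc1 and Uqcrb, subunits of complex III, differed by -0.54 ± 0.17 and -0.67 ± 0.25. Uqcrc1 was at -0.11 in wtKI and -0.97 in SNP, and Uqcrb at -0.69 and -0.65. Cholesterol synthesis genes were lower in 9 of 12 with a median of -0.35, which was -0.71 in SNP and 0.02 in wtKI. Cyp51, the lanosterol demethylase, differed by -1.05 ± 0.42 and did not overlap on the 10 arrays (-0.99 ± 0.21).

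Bright genes as a whole leaned the same way as these lists. Genes were put in 5 equal bins by mean level. In the brightest bin the median difference was -0.1, at -0.01 in wtKI and -0.19 in SNP, and in the dimmest bin it was 0.09. Of the genes without overlap, the brightest bin held 18 lower and 6 higher, and the dimmest 5 lower and 10 higher. On the 10 arrays the brightest and dimmest bins were at -0.09 and 0.1. With each array centred on its median the cell cycle, ribosome biogenesis and glycolysis lists were at -0.25, -0.35 and -0.16. The part of signal brightness in the lists was not tested.

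By list median, late neutrophil, B-lineage, erythroid and T and NK cell markers were higher in SNP and not in wtKI on the 12 arrays. Without SNP 1 and KO 1 the pooled medians of late neutrophil and B-lineage genes were smaller. Those of the erythroid and T and NK cell lists were then slightly negative. Late neutrophil genes were higher in 14 of 17, with a median of 0.67 that was 1.73 in SNP and -0.09 in wtKI. On the 10 arrays, 10 were higher and the median was 0.23. The means of the list overlapped there, with 6.26 to 7.11 in the knock-ins and 5.67 to 7.37 in the mouse-allele arrays. S100a9, a subunit of calprotectin, was at 9.44, 9.17 and 8.59 in wtKI and 11.89, 9.33 and 9.8 in SNP, against 8.54, 7.8 and 9.69 in WT and 8.91, 6.5 and 5.5 in KO. Its difference was 1.88 ± 0.6, and 1.98 ± 0.36 without SNP 1 and KO 1 (limma adjusted p = 0.128 there). The lowest values, 6.5 and 5.5, were both in KO, while WT 3 and KO 1 overlapped the knock-ins. Camp, the cathelicidin of secondary granules, differed by 1.83 ± 0.74, and by 1.03 ± 0.39 without those arrays. Retnlg, a resistin-like protein of neutrophils, differed by 1.74 ± 0.8, by 1.15 without SNP 1 alone and by 1.83 ± 0.32 on the 10 arrays. Other members were lower on the 10 arrays. Itgam, the integrin CD11b, was at -0.55 there without overlap, and Lcn2, the siderophore-binding lipocalin, at -0.54. Cebpe, a factor of terminal granulocyte maturation, was at -0.37, and the collagenase gene Mmp8 and the chitinase-like gene Chil3 were at -0.32 and -0.31. Primary granule genes, which GMPs express, were lower in 8 of 8, with a median of -0.38 (-0.08 in wtKI and -0.48 in SNP), and -0.19 on the 10 arrays. Among them Prtn3, proteinase 3, differed by -0.55 ± 0.31, by -0.26 without SNP 1, and did not overlap on the 10 arrays (-0.44 ± 0.14).

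B-lineage genes were higher in 9 of 9 members, with a median of 0.7 that was -0.07 in wtKI and 1.27 in SNP. In wtKI alone Cd79b, Pax5, Ebf1, Igll1 and Rag1 were lower, by value, than in the mouse-allele arrays. The median was 0.37 on the 10 arrays, at 0.34 in wtKI and 0.42 in SNP. The mean of this list on the 10 arrays ran from 5.63 to 6.09 in the knock-ins and from 5.22 to 5.48 in the others. Dntt, the terminal transferase of early lymphoid cells, was at 6.91, 9.41 and 8.24 in wtKI and 10.07, 6.22 and 7.29 in SNP, against 7.06, 7.35 and 6.7 in WT and 6.15, 5.88 and 5.46 in KO. Its classes overlapped (1.59 ± 0.59, limma adjusted p = 0.448), and the difference was 1.04 without SNP 1. Ebf1, a factor of B-cell commitment, was below the 5th percentile on 5 knock-in and 5 mouse-allele arrays, and at 9.38 on SNP 1. Erythroid genes were higher in 8 of 10 with a median of 0.31 (-0.05 in wtKI and 0.75 in SNP), and -0.03 without SNP 1 and KO 1. Klf1, a factor of red cell genes, was at 9.5 on SNP 1 and between 4.61 and 5.73 on the other knock-in arrays. Among genes of T and NK cells, 6 of 9 were higher (median 0.1), but only 4 on the 10 arrays (median -0.06). Klrb1c, an NK receptor, differed by 1.72 ± 0.9, by 0.96 without SNP 1 and by 0.75 ± 0.74 on the 10 arrays, with 2 knock-in and 5 mouse-allele arrays below the 5th percentile. Megakaryocyte genes were higher in 6 of 8 (median 0.06).

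**Figure D4:**
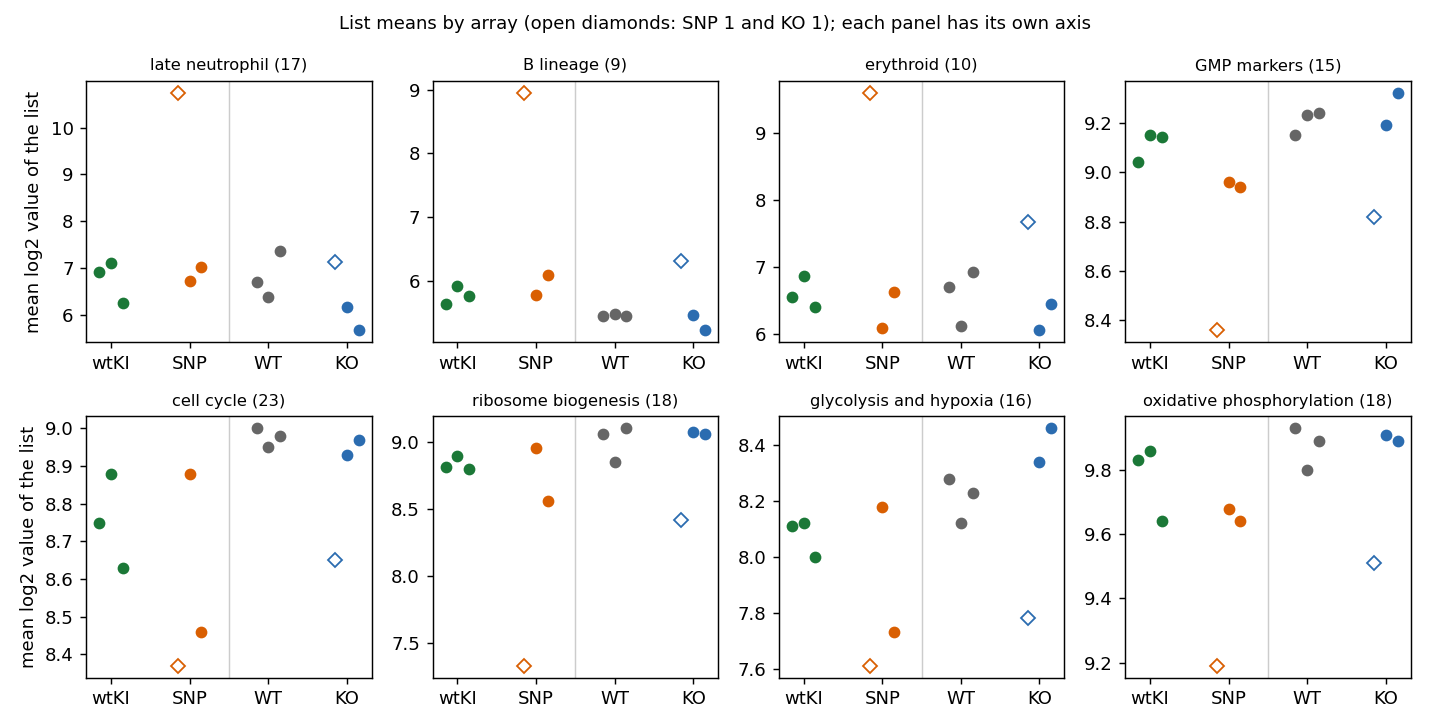
Mean log2 value of 8 gene lists (measured members in brackets) on each array, wtKI and SNP left of WT and KO, one axis per panel. Open diamonds are SNP 1 and KO 1, which lie farthest out in most panels, for example at 10.74 for late neutrophil genes on SNP 1. Among the other 10 arrays the cell cycle list is lower on every knock-in array than on every mouse-allele array.

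The GMP markers themselves were lower in 12 of 15 (median -0.2, at 0.01 in wtKI and -0.39 in SNP, and -0.13 on the 10 arrays), and housekeeping genes in 5 of 5 (median -0.09). Monocyte and macrophage genes were higher in 9 of 14 (median 0.2), with Mrc1 the member without overlap. Dendritic cell and MHC class II genes were higher in 9 of 13 (median 0.15). Among them Itgax, the integrin CD11c, differed by 0.54 ± 0.18, and Siglech, a receptor of plasmacytoid dendritic cells, by 1.37 ± 0.57 with 3 knock-in and 5 mouse-allele arrays below the 5th percentile. Mast cell, basophil and eosinophil genes were lower in 9 of 12 (median -0.15). Against KO the median was -0.44 in wtKI and -0.73 in SNP, but against WT it was 0.34 and -0.04. Fcer1a, a subunit of the IgE receptor, was at 4.99, 5.33 and 6.21 in wtKI and 6.18, 3.16 and 5.33 in SNP, against 3.08, 5.96 and 6.59 in WT and 8.41, 7.88 and 8.46 in KO. It was high in KO and not in WT, so its difference of -1.53 ± 0.62 is carried by the KO arrays. Prg3, an eosinophil granule protein, differed by -0.9 ± 0.49, and by -0.58 without wtKI 1 and -1.39 without wtKI 3. Ear2 of the same list went the other way, at 0.99 ± 0.71 (0.66 in wtKI and 1.32 in SNP), and 1.25 on the 10 arrays.

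Stem and early progenitor genes were higher in 7 and lower in 8 of 15 (median -0.04), at 0.19 in wtKI and -0.15 in SNP. Ly6a, the stem cell antigen Sca-1 that a GMP sort excludes, ranged from 3.3 to 9.16 in the knock-ins and from 3.78 to 6.29 in the others. Lmo2, a factor of blood stem cells, differed by -0.5 ± 0.2, and by -0.31 without SNP 1. Slamf1 separated wtKI from the rest, at 6.77, 8.22 and 6.7, with 5.65, 4.34 and 4.77 in SNP, 4.47, 4.4 and 4.35 in WT and 4.83, 5.79 and 5.34 in KO. Genes of the Hoxa and Meis1 programme were higher in 4 of 6 (median 0.25), at 0.59 in wtKI and -0.14 in SNP. Pbx3 had the largest difference of this list, at 0.84 ± 0.3 (0.65 in wtKI and 1.03 in SNP), with overlap between the classes, and 0.47 without SNP 1 and KO 1. Hoxa9, a homeobox gene of leukaemic self-renewal, was at 5.55 on SNP 1 and between 8.78 and 9.34 on the other knock-in arrays. It differed by -0.14 ± 0.17 without SNP 1 and KO 1.

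Receptors of the SLAM family, which lymphocytes and progenitors use for contact, were higher in 5 of 8 members with a median of 0.2, at -0.08 in wtKI and 0.25 in SNP. Slamf6 was at 6.01, 6.6 and 6.75 in wtKI and 7.16, 7.07 and 6.46 in SNP, against 5.33, 5.16 and 6.72 in WT and 4.95, 5.47 and 4.99 in KO. Only WT 3 reached the knock-in range, and the difference was 1.24 ± 0.28 (limma adjusted p = 0.325), or 1.13 ± 0.31 on the 10 arrays. The interferon-inducible HIN-200 genes, sensors of DNA that lie in a cluster near the SLAM genes on chromosome 1, were higher in 6 of 6 with a median of 0.43. Ifi202b was at 8.17, 8.89 and 8.08 in wtKI and 2.67, 2.1 and 2.02 in SNP, against 7.1, 2.19 and 1.94 in WT and 2.25, 1.84 and 3.23 in KO. It was either high or below the 5th percentile, and high on wtKI and WT 1 alone, so its difference of 2.23 ± 0.74 is not shared by the knock-ins. Ifi204 and Ifi203 differed by 1.0 ± 0.4 and 0.52 ± 0.18, with overlap. Among interferon-stimulated genes 14 of 18 were higher (median 0.27, at -0.08 in wtKI and 0.31 in SNP, and -0.04 with 8 higher on the 10 arrays). Stat2, a subunit of the factor that switches them on, had no overlap, with 6.71 to 8.55 in the knock-ins and 6.06 to 6.62 in the others, a difference of 0.91 ± 0.27 and 0.6 ± 0.18 without SNP 1 and KO 1. Iigp1, an immunity-related GTPase, differed by 0.93 ± 0.18, at 0.29 in wtKI and 1.56 in SNP.

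Inflammatory genes were higher in 12 of 12 members, with a median of 0.33, and in 10 with a median of 0.23 on the 10 arrays. Their medians were -0.02 in wtKI and 0.62 in SNP, and 0.05 and 0.35 without SNP 1 and KO 1. Tnf differed by 1.22 ± 0.41 and Tnfaip3, an inhibitor of NF-kB signalling, by 0.61 ± 0.22. Il1b was at 9.18 on SNP 1 and between 4.81 and 6.0 on the other knock-in arrays. Immediate-early and stress genes were higher in 12 of 16 (median 0.25, and 0.08 on the 10 arrays). That held against WT, with medians of 0.37 in wtKI and 0.69 in SNP, but not against KO (-0.12 and -0.06). Jun, a subunit of AP-1, was at 9.05, 9.03 and 9.69 in wtKI and 9.5, 9.07 and 9.62 in SNP, against 7.11, 7.96 and 8.32 in WT and 7.49, 9.35 and 8.32 in KO. Only KO 2 reached the knock-in range, and the difference was 1.23 ± 0.31 (limma adjusted p = 0.334). Of the p53 targets 7 of 10 were higher (median 0.06), but 4 of 10 on the 10 arrays (median -0.07). The death receptor gene Fas was at 8.32 on SNP 1 and between 5.31 and 6.05 on the other knock-in arrays. It differed by 0.88 ± 0.36, and by 0.49 without SNP 1.

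**Figure D5:**
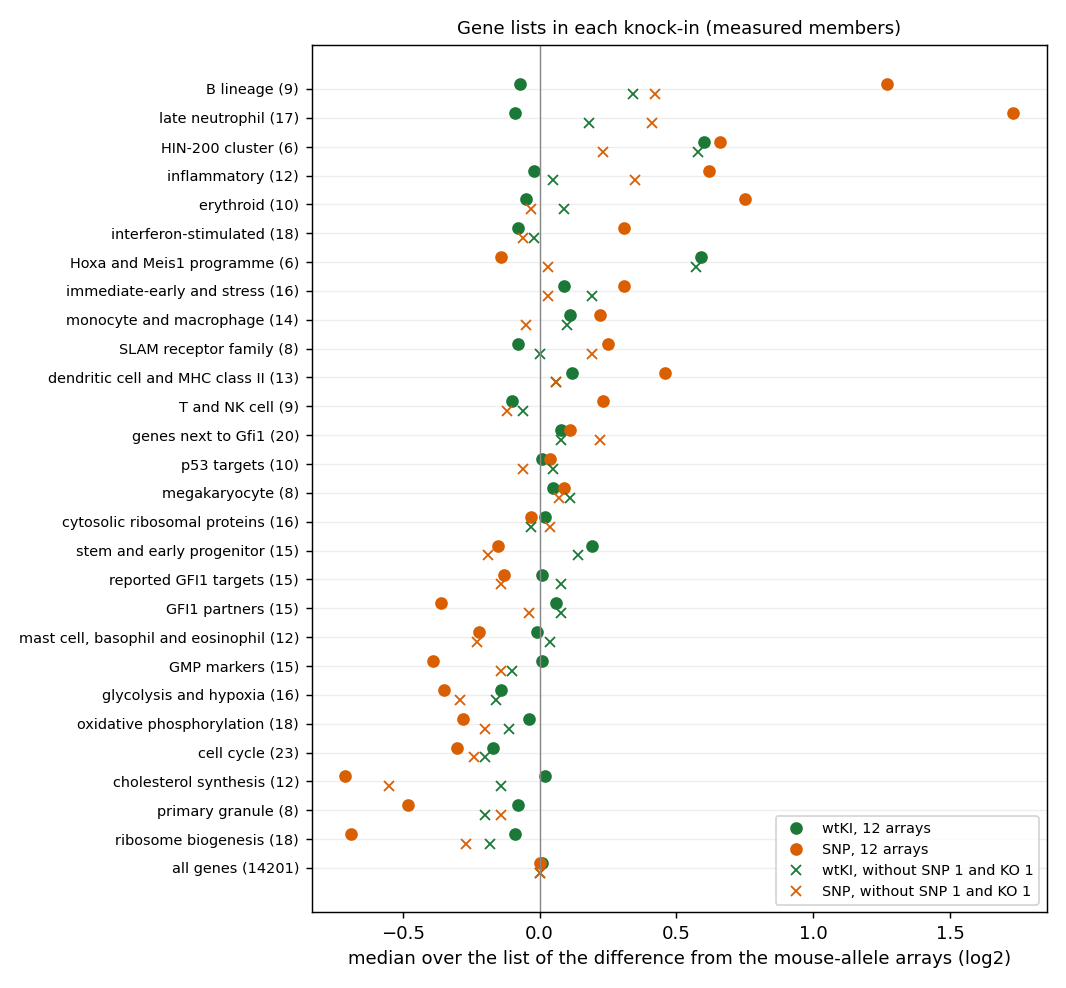
For each gene list (measured members in brackets), the median over its genes of the log2 difference of wtKI (green) and SNP (orange) from the same mouse-allele arrays, with all 12 arrays (circles) and without SNP 1 and KO 1 (crosses). Both knock-ins are set against the same WT and KO arrays. The late neutrophil median of SNP lies at 1.73 with SNP 1 and 0.41 without it, while those of the cell cycle list lie, for both knock-ins, between -0.3 and -0.17 throughout.

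Of the partners of GFI1 12 of 15 were lower (median -0.12), but the median was 0.06 in wtKI and -0.36 in SNP. On the 10 arrays 8 were lower (median -0.03). Ajuba, a LIM protein that GFI1 binds, differed by -0.79 ± 0.21, with a highest knock-in value of 5.9 and a lowest mouse-allele value of 5.8. Kdm1a was at 6.25 on SNP 1, and differed by -0.38 ± 0.32 with it and -0.09 ± 0.19 on the 10 arrays. Hdac1, a histone deacetylase, differed by -0.34 ± 0.16. Reported targets were higher in 6 and lower in 9 of 15 (median -0.06). Egr2, a zinc-finger factor of the monocyte fate and one of these targets, was at 7.53, 7.7 and 7.67 in wtKI and 8.23, 8.11 and 8.4 in SNP, against 6.96, 6.73 and 7.51 in WT and 7.92, 7.5 and 7.41 in KO. Only KO 1 reached the knock-in range, and the difference was 0.6 ± 0.16, or 0.68 ± 0.17 without overlap on the 10 arrays (limma adjusted p = 0.17).

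The 10 measured genes on each side of Gfi1 on chromosome 5 were higher in 12 and lower in 8, with a median of 0.09, and none stood without overlap. Tmed5, a cargo receptor of the secretory pathway and the fourth gene on one side, was at 6.3, 6.55 and 6.72 in wtKI and 7.43, 6.93 and 6.97 in SNP, against 7.69, 7.85 and 7.7 in WT and 6.63, 7.09 and 7.31 in KO. Its difference was -0.56 ± 0.16, and -0.73 ± 0.13 without overlap on the 10 arrays (limma adjusted p = 0.128). The adjacent gene on the other side, Rpap2, a phosphatase of RNA polymerase II, differed by -0.67 ± 0.31, with 4.98 on SNP 1 and a difference of -0.4 without it. Dipk1a, a kinase-like protein, differed by 0.56 ± 0.25.

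The differences can also be taken between pairs of groups that share no array. Across the 14201 genes wtKI minus WT and SNP minus KO had a Pearson correlation of 0.137, with the same sign in 59.1% of genes. Without SNP 1 and KO 1 these were 0.171 and 61.2%. The other pairing, wtKI minus KO and SNP minus WT, gave -0.093 and 49%, and 0.142 and 59.5% without those arrays. Genes are not independent replicates, and all values come from arrays normalized together.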

How the data were processed

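Each of the 12 samples was measured on 1 array. The deposited table holds log2 signals normalized by RMA, per the submitters' processing notes, for 105661 probe sets, each of which reaches 6.14 or more on some array, so dimmer probe sets were not analysed here. Of these, 98975 carry 1 gene symbol, and the gene value is the median of a gene's probe sets (14201 genes, of which 2874 have 1 probe set). Array annotation symbols were updated through RefSeq for 1754 genes. Depth does not apply to arrays.

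Group means were fitted with limma 3.58.1 (R 4.3.3) on all 4 groups, with p-values adjusted by Benjamini-Hochberg over all genes or all probe sets and a threshold of 0.05. The fit was tested on simulated data. A gene had no overlap when every knock-in value lay on one side of every mouse-allele value. Single Gfi1 probe sets were also tested by exact permutation of 6 arrays against 6. The named genes are the 15 per direction without overlap and with the smallest p. Named list members are mainly those without overlap or with the largest absolute differences of their list. Not every member with a large difference is named. The comparison, members and lists were chosen with earlier results of these data known. Kcnrg, Gm9078, Ifitm1, Mospd3, Rplp0 and the late neutrophil genes Itgam, Lcn2, Cebpe, Mmp8 and Chil3 were chosen after their values were seen. Alternatives were other ways to combine probe sets, other scaling, a filter on dim genes, array weights, covariates, a replicate block and leaving out arrays.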

Additional observations from a re-analysis of the deposited data

Results flagged for a closer look

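In 182 groups of 6 values checked, 29 had 1 array far from the other 5 of its class, 20 of them on SNP 1, 3 on KO 1 and 6 on other arrays. By chance about 1 group in 20 is marked this way. SNP 1 and KO 1 had the lowest median correlations with the other arrays, 0.63 and 0.70.

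On SNP 1 the values far above the other knock-in arrays were those of the neutrophil genes S100a9 (11.89) and Camp (11.56), of Klf1 (9.5), Ebf1 (9.38), Il1b (9.18), Fas (8.32), Gbp2b (7.71) and Slc5a9 (7.06). Those far below were Lmo2 (7.86), Cd34 (7.35), G6pc3 (7.03), Prtn3 (6.81), Nolc1 (6.58), Kdm1a (6.25), Hoxa9 (5.55), Rrp12 (5.37), Cyp51 (5.07), Rpap2 (4.98) and probe set 10532125 of Gfi1 (8.35). On KO 1, Gfi1b (7.9) stood above the other mouse-allele arrays and Prtn3 (7.98) below them.

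On other arrays, Rabgap1l was high on wtKI 2 (7.68), Desi1 low on SNP 3 (6.6) and Sgo2a low on KO 2 (7.83). WT 3 was high for Slamf6 (6.72) and for probe set 10532130 of Gfi1 (5.95), and WT 1 for Ifi202b (7.1).

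The knock-ins differed from each other in Rplp0, a ribosomal stalk protein, by 1.75 ± 0.2 in SNP over wtKI, the 1 gene that passed in that test (limma adjusted p = 0.0232). It was at 10.1, 10.22 and 10.1 in SNP, against 8.39, 8.62 and 8.17 in wtKI. The mouse-allele groups split as well, at 8.15, 8.63 and 8.56 in KO, against 10.38, 10.28 and 10.41 in WT. Both knock-ins together differed from the mouse-allele arrays by -0.14 ± 0.14.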

How the results depend on the processing

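Of 2487 values recomputed for 108 results, 2477 kept their direction. Many of these results were chosen for no overlap or a large difference. Leaving out arrays cannot reverse a difference without overlap, so this count does not measure robustness. Array weights put 0.2007 on SNP 1, 0.2478 on KO 1 and 4.543 on KO 2. With them limma called 143 of 14201 genes (50 higher, 93 lower) and 27 of 105661 probe sets, against 0 of each in the report. The genes called included 4 list members, also against 0. That count is to be read beside the share of all genes called and is no result about the lists. Leaving out 1 array at a time gave 0 to 1 genes, 0 to 3 probe sets and 0 to 1 list members: Kng2 passed without SNP 3 (-1.52, adjusted p = 0.0211) and Ifi202b without WT 1 (3.07, adjusted p = 0.00525). With the level of Y-linked genes as a covariate 1 probe set passed, 10532126 of Gfi1 (-3.11, adjusted p = 0.0178), which also passed without WT 1 (-3.18, adjusted p = 0.0306). Over all settings its adjusted p ran from 0.0178 to 0.405 and its difference from -3.21 to -2.88. Genes without overlap numbered 346 without SNP 1 and KO 1 and 104 to 272 without 1 array, against 84, and fewer arrays make a gap between classes easier by construction. Reversed signs were those of Gfi1 (-0.26 with the mean of probe sets, -0.31 with the brightest one), Gfi1b (0.06 without SNP 1 and KO 1, 0.10 with median polish, 0.04 with the brightest probe set, and -0.26 to 0.10 without 1 array), Ifitm1 (0.14 with the mean), and Phf6 (-0.03), Hfe (0.24) and Desi1 (0.05) with the brightest probe set. The cause was not tested. At an unadjusted p under 0.05, 609 genes were higher and 754 lower, against 721 and 585 with median centring, 649 and 602 with quantile scaling, 816 and 524 with the brightest probe set, and 357 and 653 with the dim filter. With the replicate number as a block 0 genes were called. Deviations from the group mean correlated at -0.172 to 0.341 between same-numbered arrays of different groups, with the highest value for SNP 1 and KO 1. Between arrays of unlike number they correlated at -0.31 to 0.288. The numbers were not taken to pair the arrays.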
